A study of Mus musculus with 69 samples.

Results

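The 10 genes described here, Trh, Fgfbp1, Itih5, Cnn2, Myl9, Tcl1, AU018091, Mef2b, Clic5 and Slc38a3, are those of the 55367 gene symbols in the count table that were chosen by a large rise or fall, at 48 and 72 h, in wild-type cells that shared a gastruloid with p53-deficient cells. Their level in that comparison at those times is therefore given as a description only. Not every gene differed at both times. The later times of the same comparison, the p53KO cells themselves, the mES cell clones and the time course of the other WT clone were not used in the choice and were tested. The tests of p53KO cells at 48 and 72 h, and the fits of all 69 libraries, share their estimate of spread with the libraries used in the choice. They are thus not fully independent of it. All 10 genes passed the filter on low counts in every fit, and none was at 0 in any library.

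Bulk RNA sequencing covered 69 libraries in 23 groups of 3 replicates, made from E14Tg2A mouse embryonic stem (mES) cell clones and from gastruloids, aggregates of such cells that elongate and form germ layer derivatives. The study asks how cells without p53 compete with wild-type neighbours. At 0 h the groups were 3 clones grown as mES cells, p53KO–emiRFP, WT–emiRFP and WT–mCherry. At 48, 72, 96, 120 and 144 h they were 4 populations sorted by FACS from mosaic gastruloids: WT–mCherry and WT–emiRFP cells of WT + WT gastruloids, and WT–mCherry and p53KO–emiRFP cells of WT + p53KO gastruloids. WT–mCherry cells carry an EF1α-driven H2B–mCherry reporter and both emiRFP clones a CAG-driven H2B–emiRFP670 reporter. The p53KO–emiRFP line is a single clone derived from WT–emiRFP cells, with a homozygous frameshift insertion in exon 4 of Trp53 and selection with Nutlin. The protocol gave a pulse of the Wnt agonist CHIR99021 from 48 to 72 h, so that gastruloids of the later times had received it and those of 48 h had not. WT + WT gastruloids were seeded with 150 cells of each clone, 300 in total, and WT + p53KO gastruloids with 150 WT–mCherry and 25 p53KO–emiRFP cells, 175 in total. The genotype of the neighbour and the starting number of cells can thus not be told apart in any comparison of WT–mCherry cells by neighbour.

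Trh encodes the precursor of thyrotropin-releasing hormone, a secreted peptide. Fgfbp1 encodes a secreted carrier that frees FGFs from the extracellular matrix, and Itih5 a heavy chain of the inter-alpha-trypsin inhibitor family, which binds hyaluronan in the matrix. Cnn2, calponin 2, binds actin filaments, and Myl9 is a regulatory light chain of myosin II, whose phosphorylation switches on contraction. Genes of this kind are often driven by serum response factor (SRF), which binds the CArG box and answers to the pool of free actin. Tcl1 encodes a coactivator of the kinase AKT and is a known gene of naive mES cells. AU018091 is named here only by its symbol. Mef2b is a MADS-box transcription factor, Clic5 a chloride intracellular channel protein that links membrane and cortical actin, and Slc38a3 a sodium-coupled transporter of glutamine and other neutral amino acids.

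Promoter sequence of RefSeq on GRCm38.p6 was held for 8 of the 10 genes, and no entry was used for AU018091 and Slc38a3. In the 250 bases before the RefSeq start, on either strand, the CArG box occurs in 1.47% of 32851 promoters and in those of Cnn2 and Myl9 among the 8. The octamer ATGCAAAT, the binding sequence of POU factors, occurs in 1.6% and among the 8 in that of Mef2b. A single unit of the p53 binding site, rather than the full site, occurs in 7.13% and TATAAA in 12.4%. The TEAD motif GGAATG occurs in 12.6% and the TCF/LEF motif CTTTGA in 13.8%. These 4 were in 0 of the 8. The share of promoters with a full p53 site was not determined. The 3 promoters with a match are shown because they hold the actin-linked pair and the transcription factor of the set. Each is written 5′ to 3′ on the plus strand, with the motif in capitals. Those of Cnn2 and Myl9 were cut just before the first base of the gene in Gencode, so that the RefSeq start, from which positions are counted, lies a short way beyond their printed end. That of Mef2b ends at the RefSeq start, which lies downstream of the first Gencode base, 70139711, and thus inside the Gencode gene. The CArG box of Cnn2 lies at −56 to −47 in chr10:79988350-79988583, that of Myl9 at −161 to −152 in chr2:156775214-156775419, and the octamer of Mef2b at −85 to −78 in chr8:70152511-70152760. They have 23, 12 and 9 CpG sites.
Cnn2: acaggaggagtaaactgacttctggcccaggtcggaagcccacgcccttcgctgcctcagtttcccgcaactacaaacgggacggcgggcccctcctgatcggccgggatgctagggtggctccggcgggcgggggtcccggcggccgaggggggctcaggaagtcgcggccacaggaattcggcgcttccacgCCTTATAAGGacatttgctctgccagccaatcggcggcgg
Myl9: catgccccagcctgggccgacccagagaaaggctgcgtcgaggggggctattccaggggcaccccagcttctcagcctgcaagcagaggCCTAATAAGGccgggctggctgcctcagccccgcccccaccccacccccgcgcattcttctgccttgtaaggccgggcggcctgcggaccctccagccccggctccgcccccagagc
Mef2b: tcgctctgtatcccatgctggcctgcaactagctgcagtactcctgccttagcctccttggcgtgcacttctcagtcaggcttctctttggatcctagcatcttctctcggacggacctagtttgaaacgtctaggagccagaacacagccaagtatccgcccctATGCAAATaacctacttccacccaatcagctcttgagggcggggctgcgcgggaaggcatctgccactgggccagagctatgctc

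Library totals ranged from 26722541 to 72981570 counts with a median of 53098728, and the lowest count of any of the 10 genes was 27, for Clic5. Trp53 had 1516 to 2607 normalized counts in the p53KO–emiRFP libraries and 13999 to 27702 in the WT libraries, without overlap. The 7 markers of mES cells and epiblast summed to between 169596 and 205483 normalized counts in mES cells, and the 6 of primitive streak and mesoderm rose in WT–emiRFP cells from 558 to 604 at 48 h to 49469.7 to 63138 at 72 h. H2bc14, a histone gene that was high only in the clones with the emiRFP reporter, had 6.25 to 8.27 normalized counts in WT–mCherry mES cells and 4968 to 10589.6 in emiRFP libraries. It was read as a measure of RNA from emiRFP cells in the sorted WT–mCherry libraries. As a percentage of the level in the emiRFP cells of the same gastruloids, it was 0.299% to 0.41% beside p53KO cells and 0.534% to 0.722% beside WT cells at 48 h, 0.486% to 2.08% and 0.506% to 1.1% at 72 h, 1.48% to 3.57% and 0.391% to 1.2% at 96 h, 3.01% to 7.46% and 1.16% to 2.11% at 120 h, and 2.39% to 16.9% and 0.191% to 2.12% at 144 h. From 96 h on the 3 libraries beside p53KO cells were above the 3 beside WT cells for H2bc14, and likewise for H2bc7. Another such gene, H2bc21, gave higher percentages, 11% to 29.1% against 5.65% to 9.59% at 120 h, and overlapped between the groups at 96 h (6.37% to 7.89% against 4.05% to 6.91%) and 144 h (7.61% to 23.7% against 3.65% to 10.9%). The part of emiRFP RNA in the neighbour differences of these times was not tested. Of the differences that passed, Clic5 and Slc38a3 at 96 and 120 h and Trh and Mef2b at 144 h were, by mean, higher beside p53KO cells than in the p53KO–emiRFP cells themselves. Mef2b at 96 h, AU018091 at 120 h, and Cnn2 and Slc38a3 at 144 h lay between the means of WT–mCherry cells beside WT cells and of p53KO–emiRFP cells.

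Between WT–mCherry cells beside p53KO and beside WT cells, 3 of the 10 genes passed the edgeR test at 48 h, where 0.0735% of 17686 genes tested did, and 9 at 72 h, where 0.559% of 17714 did. These counts follow from the choice of the genes and nothing is read from them. At the later times 3 passed at 96 h, against 3.93% of all genes tested, 3 at 120 h, against 5.95%, and 4 at 144 h, against 25.5%. Mef2b, Clic5 and Slc38a3 were higher beside p53KO cells at 96 h, Clic5 and Slc38a3 higher and AU018091 lower at 120 h, and Trh, Mef2b and Slc38a3 higher and Cnn2 lower at 144 h. With the replicate number as a block, the genes past the threshold at 96 h became 5, with AU018091 (log2 fold change −0.28, edgeR adjusted p = 0.019) and Fgfbp1 (−0.42, edgeR adjusted p = 0.00018) lower as well, in a fit that called 3830 of 18343 genes in all. At 120 h the count was 5 with all 69 libraries in 1 fit and 6 without the low-count filter. It was higher still with the replicate block, as given at the end, though the numbers do not pair all samples there by the measure used. The shares of all genes in these 120 h fits are not given here, so nothing is read from these counts. By the counts given first, at 96 and 120 h the share of the 10 genes past the threshold was several times that of all genes, and at 144 h the shares were closer. The calls depended on single replicates, over all genes as for these 10. At 96 h, without replicate 1 in every group, 0 of the 10 and 0 of 18376 genes in all passed edgeR's test, with 2 of the 10 at an unadjusted p under 0.05. Without replicate 2 these were 0 of the 10, with 4 at an unadjusted p under 0.05, and 24 of 18459, and without replicate 3 they were 5 and 579 of 18264. At 120 h the counts for the 10 without replicates 1, 2 and 3 were 0 (5 at an unadjusted p under 0.05), 2 and 1, with 140, 609 and 385 genes called in all. At 144 h they were 2, 3 and 3, with 2528, 2312 and 3044.

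**Figure D1:**
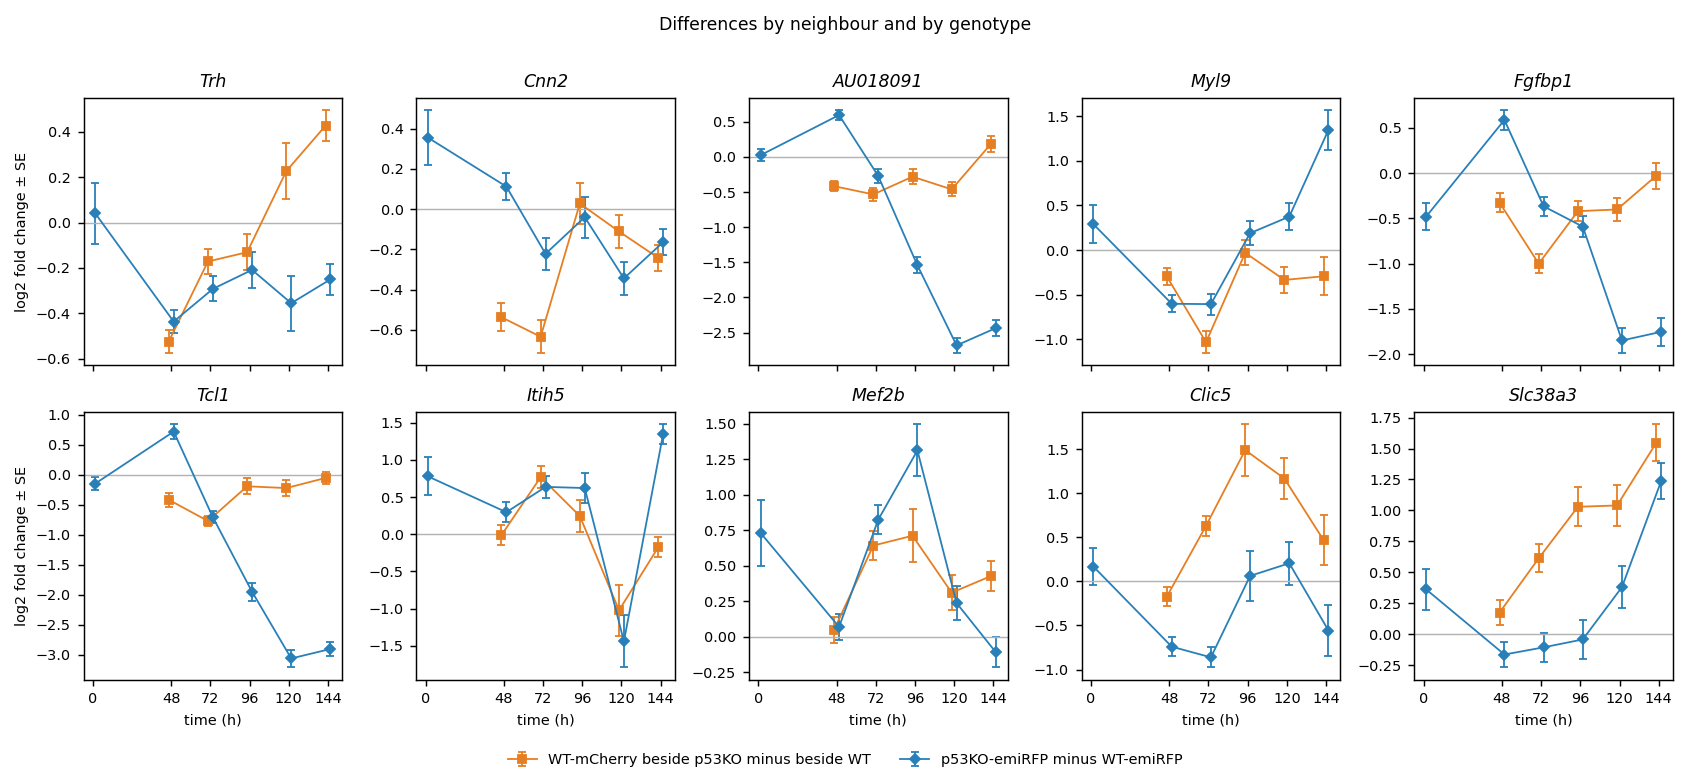
Log2 fold change ± SE from the edgeR fit of each time for the 10 genes, for WT–mCherry cells by neighbour (p53KO over WT) and for p53KO–emiRFP against WT–emiRFP cells, over time in h. By neighbour Slc38a3 stays above 0 from 72 h to 144 h, at 0.61 to 1.55, while Tcl1 and AU018091 lie between −3.06 and −2.44 in p53KO–emiRFP cells at 120 and 144 h.

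In p53KO–emiRFP against WT–emiRFP cells, 0 of the 10 genes passed edgeR's test in mES cells, where 6.13% of all genes did, with 5 at an unadjusted p under 0.05 and 3 by DESeq2. With the replicate block, which called 1799 of 18323 genes there, 3 passed: Fgfbp1 (log2 fold change −0.47, edgeR adjusted p = 0.017), Itih5 (0.78, edgeR adjusted p = 0.023) and Mef2b (0.69, edgeR adjusted p = 0.0022). In gastruloids 6 passed at 48 h, against 22% of all genes, 7 at 72 h, against 29.1%, 5 at 96 h, against 23.3%, 6 at 120 h, against 51%, and 8 at 144 h, against 65.3%. The share of the 10 genes was thus close to that of all genes from 120 h on. Without replicate 1 in every group 3 passed at 96 h, where 1848 of 18376 genes did. The replicate block added Cnn2 (edgeR adjusted p = 0.0066) and AU018091 (0.038) at 72 h, Trh (0.0061) at 96 h, and Myl9 (0.013), Mef2b (0.014) and Slc38a3 (0.011) at 120 h. Between the WT clones at 0 h, WT–mCherry had less Tcl1 (log2 fold change −0.64 ± 0.11, edgeR adjusted p = 0.0038) and less Mef2b (−1.26 ± 0.25, edgeR adjusted p = 0.0076) than WT–emiRFP, 2 of the 10 genes against 11.1% of all. Without replicate 2 neither passed (edgeR adjusted p = 0.11 and 0.11), in a fit that called 118 of 18437 genes, and without replicate 1 the count was 4, in one that called 2603 of 18170. Along the time course of WT–emiRFP cells, 8 of the 10 changed from 0 to 48 h (60.3% of all genes), 6 from 48 to 72 h (49.6%), 9 from 72 to 96 h (41.5%), 6 from 96 to 120 h (42.3%) and 7 from 120 to 144 h (33.8%).

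**Figure D2:**
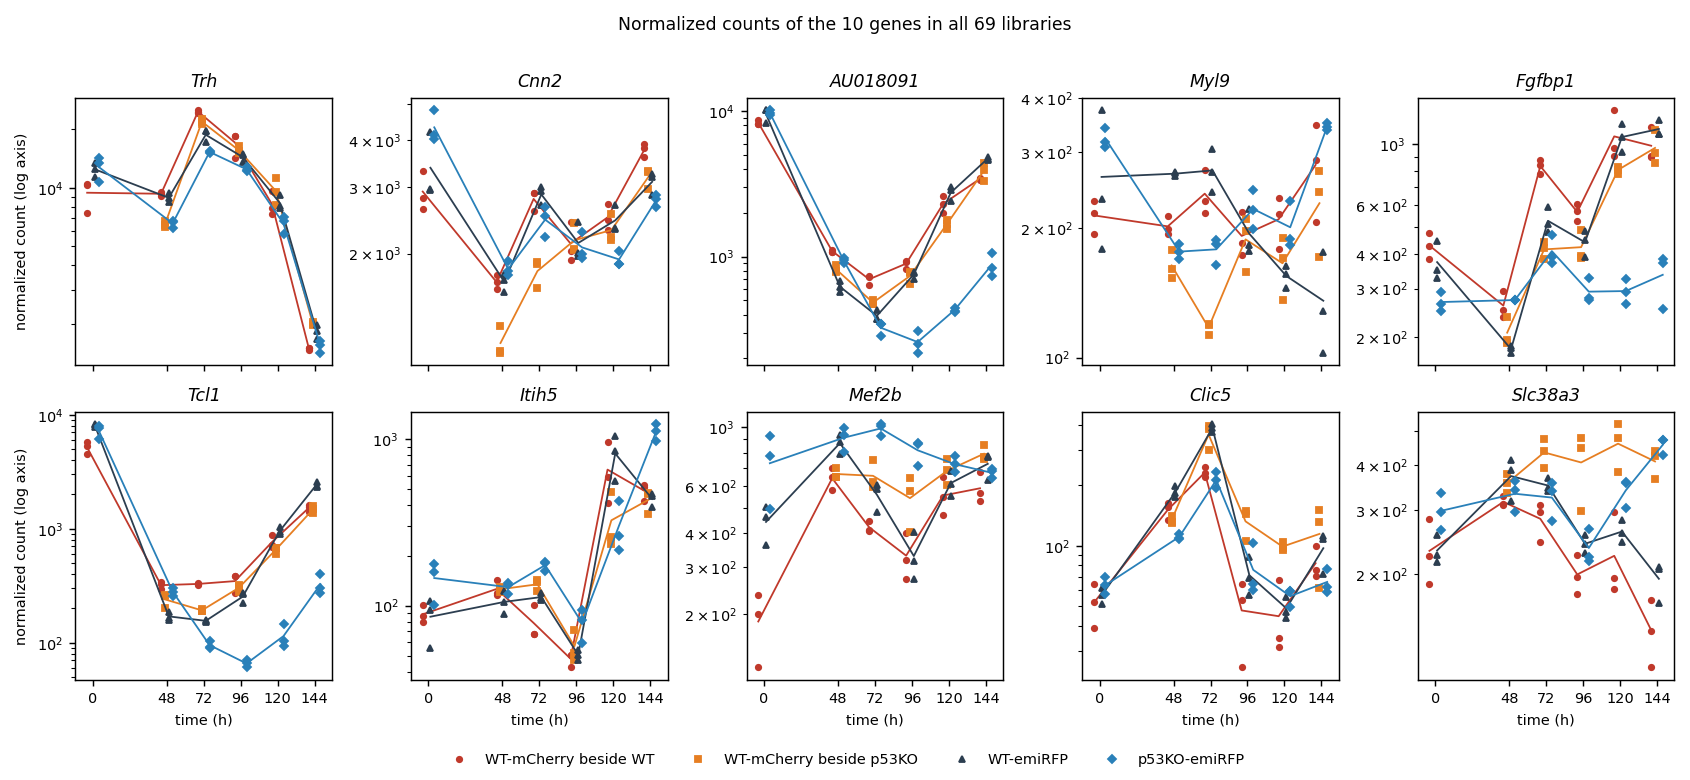
Normalized counts of the 10 genes over time in h, with a point for each of the 3 libraries of a group and a line through the group means, on a log axis. Tcl1 and AU018091 start high in mES cells, drop by 48 h and end lowest in p53KO–emiRFP cells, and Itih5 rises between 96 and 120 h in all 4.

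The plot of single libraries at 48 and 72 h shows the values that the choice of the genes rests on, beside the other populations. At 72 h the WT–mCherry cells beside WT cells stood apart from WT–emiRFP cells of the same WT + WT gastruloids in the direction in which they stood apart from WT–mCherry cells beside p53KO cells, for 8 of the 10 genes. For all genes with a mean of at least 10 normalized counts, 71.1% of 17934 showed that order, a share near that of the 10. At 48 h it was 7 of the 10, against 63.9%. At 72 h the log2 ratio of WT–mCherry to WT–emiRFP cells in the 8 ran from −0.74 for Clic5 to 1.08 for Tcl1. Cnn2 (−0.04) and Myl9 (−0.18) were the exceptions, and there the WT–mCherry cells beside p53KO cells were below the other 3 populations. These comparisons share the WT–mCherry libraries that were used to choose the genes and have no test.

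**Figure D3:**
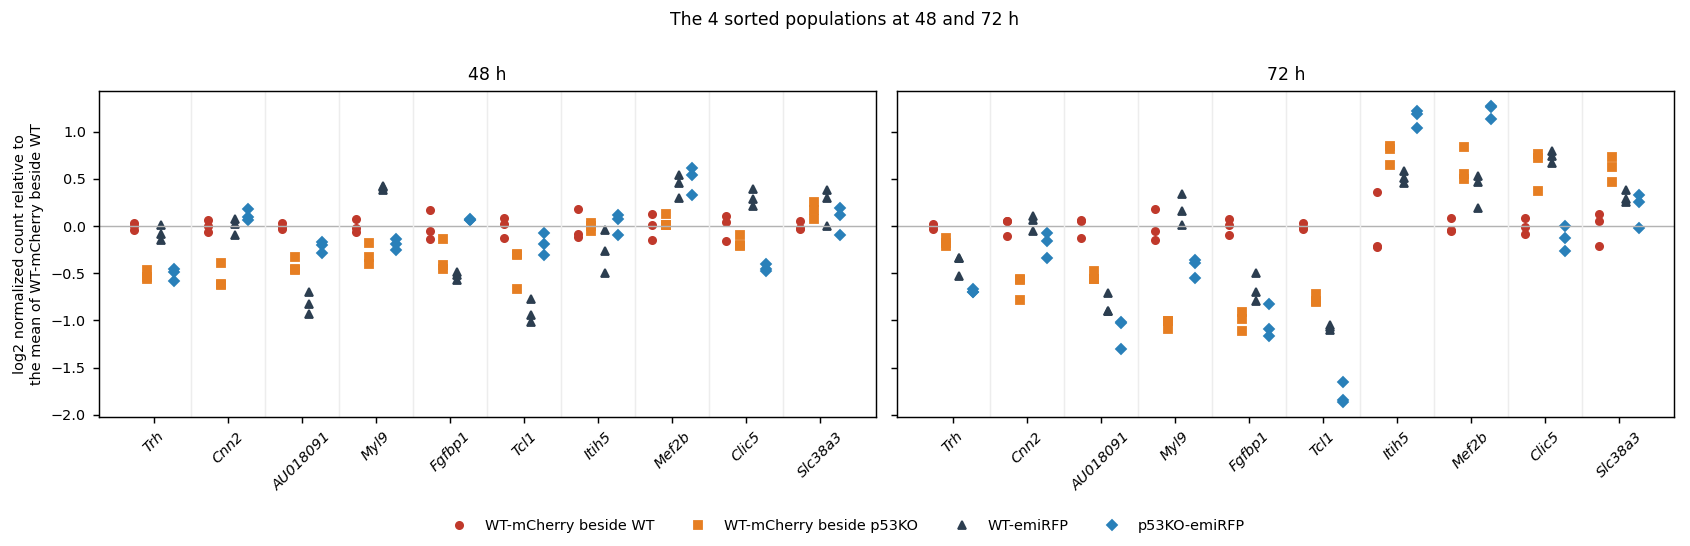
Log2 normalized count of each library at 48 and 72 h relative to the mean of WT–mCherry cells beside WT cells, for the 10 genes and the 4 sorted populations. At 72 h the 3 libraries of WT–mCherry cells beside p53KO cells lie below all other libraries for Cnn2 and Myl9, and for Tcl1, AU018091, Itih5 and Mef2b between those beside WT cells and the p53KO–emiRFP libraries.

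Trh (chr6:92242061-92244650, minus strand) was lower in WT–mCherry cells beside p53KO cells at 48 h. They had 6725, 6298 and 6406 normalized counts there and 9556, 9307 and 9087 beside WT cells, a 1.44-fold lower level. The groups did not overlap, and the p53KO–emiRFP cells, at 6784, 6649 and 6238, overlapped with their WT neighbours. Fewer cells that make a transcript and less of it per cell cannot be told apart in such bulk libraries. At 72 h all populations were higher, with 25066, 24607 and 24181 beside WT cells, 21288, 21776 and 22505 beside p53KO cells and 15481, 15133 and 15208 in p53KO–emiRFP cells. By 144 h the level had fallen everywhere and the order by neighbour had turned: 1998, 2033 and 1982 beside p53KO cells against 1498, 1506 and 1468 beside WT cells (log2 fold change 0.43 ± 0.07, edgeR adjusted p = 0.00082). At 96 h (−0.13 ± 0.08, edgeR adjusted p = 0.39) and 120 h (0.23 ± 0.12, edgeR adjusted p = 0.32) the neighbour difference did not pass. The change of the neighbour effect from 96 to 144 h passed (log2 difference 0.56 ± 0.14, edgeR adjusted p = 0.0082), but not without replicate 1 (0.13) or replicate 2 (0.085). The p53KO–emiRFP cells had less Trh than WT–emiRFP cells at 48 h (−0.44 ± 0.05, edgeR adjusted p = 1.4e-05), 72 h (−0.29 ± 0.06, edgeR adjusted p = 0.001), 120 h (−0.36 ± 0.12, edgeR adjusted p = 0.025) and 144 h (−0.25 ± 0.07, edgeR adjusted p = 0.0054). In WT–emiRFP cells it rose 2.11-fold from 48 to 72 h and fell 4.57-fold from 120 to 144 h (edgeR adjusted p = 1.4e-13 and 1.5e-23).

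Of 8 genes that process the Trh precursor or receive the hormone, 5 were tested at 72 h, and 0 changed by neighbour (0 at an unadjusted p under 0.05). At 144 h, where Trh was higher, 1 of 5 passed, Cpe, a carboxypeptidase that trims prohormones, which was lower (−0.85 ± 0.16, edgeR adjusted p = 0.0025), and the median was −0.15 beside −0.03 over all genes. In p53KO–emiRFP cells 4 of the 5 were lower at 72 h, with a median log2 fold change of −0.58 beside 0.01 over all genes. Among them were Pcsk1, a convertase that cuts the precursor (−0.55, edgeR adjusted p = 0.0022), and Pam, which amidates the peptide (−0.58, edgeR adjusted p = 0.0017). At 48 h 1 of 5 tested was higher and 3 were lower, and at 96 h 2 of 4 were lower. At 120 h 1 of 4 was higher and 1 lower, and at 144 h 2 of 5 were higher and 3 lower.

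Fgfbp1 (chr5:43978858-43981779, minus strand) had 841, 778 and 878 normalized counts beside WT cells at 72 h and 385, 420.2 and 442 beside p53KO cells, a 2.00-fold lower level. Every library beside p53KO cells was below every library beside WT cells, and the p53KO–emiRFP cells, at 370.0, 389.5 and 470.3, overlapped with their WT neighbours. At 48 h the WT–mCherry groups overlapped, with means of 208 beside p53KO and 260.5 beside WT cells. The later neighbour differences had the same sign at 96 h (−0.42 ± 0.11, edgeR adjusted p = 0.055) and 120 h (−0.40 ± 0.13, edgeR adjusted p = 0.088) without passing, and the value was near 0 at 144 h (−0.03 ± 0.15, edgeR adjusted p = 0.91). With the replicate block the difference at 96 h passed, as given above. At 48 h p53KO–emiRFP cells had more Fgfbp1 than WT–emiRFP cells, with 272, 272 and 274 against 186, 182 and 176 normalized counts (log2 fold change 0.59 ± 0.11, edgeR adjusted p = 0.0011). From 72 h it was lower, 1.29-fold at 72 h (edgeR adjusted p = 0.017) and 1.51-fold at 96 h (0.0019). WT–emiRFP cells gained the transcript between 96 and 120 h, 2.40-fold (edgeR adjusted p = 7.5e-12). The p53KO–emiRFP cells had 278, 273 and 327 at 96 h and 291, 265 and 326 at 120 h. At 120 h they were 3.61-fold below WT–emiRFP cells (−1.85 ± 0.14, edgeR adjusted p = 9.9e-08) and at 144 h 3.37-fold (−1.75 ± 0.16, edgeR adjusted p = 2.7e-07). Fgfbp3, of the same family, was lower in p53KO–emiRFP cells at 48 h (−0.46 ± 0.14, edgeR adjusted p = 0.024) and higher later, with log2 fold changes of 1.70 ± 0.16 (edgeR adjusted p = 9.9e-07) at 120 h and 1.97 ± 0.19 (edgeR adjusted p = 5.6e-07) at 144 h.

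Itih5 (chr2:10153571-10256529, plus strand) was 1 of the 4 genes that were higher beside p53KO cells at 72 h, with 138, 142 and 123 normalized counts against 101, 67.3 and 67.8. The p53KO–emiRFP cells had 162, 179 and 184 and WT–emiRFP cells 112, 118 and 108, so that the level beside p53KO cells lay between those of WT–emiRFP and p53KO–emiRFP cells. At 48 h the WT–mCherry groups overlapped, at 125 ± 3.78 and 126 ± 14.8 (SD, n = 3). The gene was low at 96 h and then rose 16.2-fold in WT–emiRFP cells by 120 h (log2 fold change 4.02 ± 0.27, edgeR adjusted p = 9.2e-19). At 120 h the replicates were wide apart: 596, 412 and 964 beside WT cells, 259, 235 and 483 beside p53KO cells, 851, 563 and 1051 in WT–emiRFP and 217, 264 and 428 in p53KO–emiRFP cells. The ranges of the neighbour groups overlapped there, although the library beside p53KO cells was the lower in each of the 3 same-numbered pairs. The log2 fold change of −1.02 ± 0.35 did not pass (edgeR adjusted p = 0.1). It passed with the replicate block, as given at the end, though the numbers do not pair all samples at 120 h by the measure used. It also passed without the low-count filter (edgeR adjusted p = 6e-16). The counts of Itih5 are the same with and without the filter, so nothing is read from that value. The p53KO effect on Itih5 changed sign with time, from 0.64 ± 0.14 (edgeR adjusted p = 0.0041) at 72 h and 0.62 ± 0.20 (edgeR adjusted p = 0.035) at 96 h to −1.44 ± 0.35 (edgeR adjusted p = 0.0034) at 120 h and 1.34 ± 0.13 (edgeR adjusted p = 7.7e-07) at 144 h. At 144 h p53KO–emiRFP cells had 1229, 972 and 1128 normalized counts and WT–emiRFP cells 469, 454 and 390.4. With all 69 libraries in 1 fit the differences at 72 and 96 h no longer passed (edgeR adjusted p = 0.067 and 0.16).

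Cnn2 (chr10:79988584-79996062, plus strand), whose promoter with the CArG box is printed above, had its lowest level of all 23 groups in WT–mCherry cells beside p53KO cells at 48 h. They had 1091, 1102 and 1286 normalized counts there, against 1678, 1608 and 1757 beside WT cells, 1579, 1769.7 and 1703 in WT–emiRFP and 1795, 1911 and 1757 in p53KO–emiRFP cells. At 72 h they had 1625, 1899 and 1874 against 2593, 2897 and 2891 beside WT cells, a 1.55-fold lower level. At both times the libraries beside p53KO cells were below all 9 libraries of the other 3 populations, p53KO–emiRFP included. The difference was gone at 96 h, with 2044, 2407 and 2060.2 and 2028, 2426 and 1928 (log2 fold change 0.03 ± 0.10, edgeR adjusted p = 0.91). It did not pass at 120 h (−0.11 ± 0.08, edgeR adjusted p = 0.5), and a smaller one passed at 144 h (−0.24 ± 0.06, edgeR adjusted p = 0.015), where the fit of all 69 libraries gave an edgeR adjusted p of 0.067 and leaving out replicates 1, 2 and 3 gave 0.072, 0.06 and 0.077. Cnn2 was lower in p53KO–emiRFP cells at 120 h (−0.34 ± 0.08, edgeR adjusted p = 0.0031) and 144 h (−0.16 ± 0.07, edgeR adjusted p = 0.038), the latter not without the low-count filter (edgeR adjusted p = 0.057) or in the fit of all 69 libraries (0.15). In WT–emiRFP cells it fell 2.01-fold from mES cells to 48 h and rose 1.71-fold by 72 h (edgeR adjusted p = 1.2e-12 and 6.1e-09).

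Myl9 (chr2:156775420-156781658, plus strand), the other gene with a CArG box in the promoter, had 119.8, 119 and 113 normalized counts beside p53KO cells at 72 h and 216, 231 and 273 beside WT cells, a 2.05-fold lower level. The WT–emiRFP cells had 304, 269 and 243 and the p53KO–emiRFP cells 164, 184 and 187, so WT–mCherry cells beside p53KO cells were the lowest population without overlap. At 48 h they had 153, 178 and 161 against 213, 199 and 193. No neighbour difference passed afterwards: the log2 fold change was −0.03 ± 0.14 (edgeR adjusted p = 0.93) at 96 h, −0.34 ± 0.15 (edgeR adjusted p = 0.22) at 120 h and −0.29 ± 0.21 (edgeR adjusted p = 0.35) at 144 h. In p53KO–emiRFP against WT–emiRFP cells Myl9 was lower at 48 h (−0.60 ± 0.09, edgeR adjusted p = 0.00024) and 72 h (−0.61 ± 0.12, edgeR adjusted p = 0.0013) and higher at 144 h, with 351, 344 and 337 against 176, 128 and 102 normalized counts (log2 fold change 1.34 ± 0.22, edgeR adjusted p = 0.00011).

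At 48 and 72 h most other genes of the actin cytoskeleton did not pass by neighbour, though the share that passed at 72 h was above that of all genes. Of 27 genes for actin-binding proteins and SRF targets, with Cnn2 and Myl9 left out, 24 were tested by neighbour at 72 h. At that time 0.559% of all genes passed. Of the 24, 2 were lower and 0 higher. These were cardiac actin, Actc1 (log2 fold change −1.04 ± 0.18, edgeR adjusted p = 0.021), and the tropomyosin Tpm1 (−0.32 ± 0.05, edgeR adjusted p = 0.018). The median of the 24 was −0.12, beside 0.00 over all genes. At 48 h 0 of 23 passed, with 4 at an unadjusted p under 0.05. At 144 h 2 of 25 were higher and 7 lower, where 25.5% of all genes passed. Among the calponins other than Cnn2 0 of 4 passed at 48 or 72 h, and among the myosin regulatory light chains other than Myl9 0 of 5, each with 1 at an unadjusted p under 0.05. In p53KO–emiRFP cells at 144 h, 12 of 25 genes of the actin list were higher and 7 lower, where 65.3% of all genes passed. Among the higher was smooth muscle actin, Acta2, at a log2 fold change of 5.29 ± 0.25 (edgeR adjusted p = 9.1e-10). The 6 muscle markers summed to 1168 to 1204 normalized counts beside p53KO cells and 1136 to 1184 beside WT cells at 72 h, and none was at 0 in any group.

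Tcl1 (chr12:105216750-105222793, minus strand) and AU018091 (chr7:3154658-3169203, minus strand) had nearly the same pattern over the 23 groups, with a Pearson r of 0.9892 between their mean log2 CPM. They were each other's closest gene among 12123, followed by Eprn and Ooep for AU018091 (0.9875 and 0.9868) and by Rfx2 and Fbxo15 for Tcl1 (0.9848 and 0.9782). These values describe groups that share clones and time points. Their range was also the widest of the set, with the highest group mean 122.6 times the lowest for Tcl1 and 37.78 times for AU018091.

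**Figure D4:**
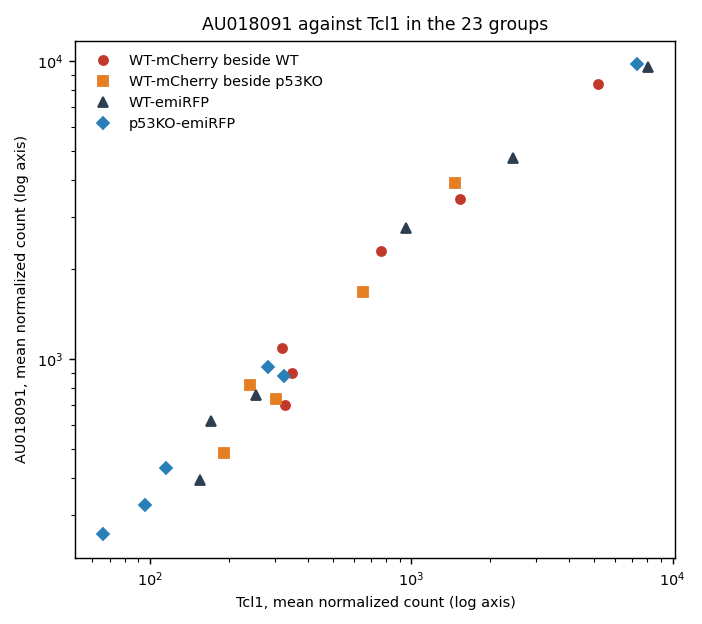
Mean normalized count of AU018091 against that of Tcl1 in the 23 groups, on log axes, with a symbol for each population and the mES cell clones under the population of their reporter and genotype. The 3 groups at the upper right are the mES cell clones, and p53KO–emiRFP cells at 96 h, with 65.8 of Tcl1 and 258 of AU018091, are the lowest in both.

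Tcl1 had 7781, 8230.2 and 8172 normalized counts in WT–emiRFP mES cells and 166, 187 and 158 in WT–emiRFP cells of 48 h gastruloids, a 47.3-fold fall (log2 fold change −5.56 ± 0.14, edgeR adjusted p = 2.7e-39). AU018091 fell 15.4-fold over the same interval (−3.95 ± 0.11, edgeR adjusted p = 2.6e-36). In 72 h gastruloids WT–mCherry cells had 336, 326 and 322 of Tcl1 beside WT cells and 188, 189 and 199 beside p53KO cells, a 1.71-fold lower level. For AU018091 these were 726, 639.5 and 731 and 472, 475 and 502, a 1.45-fold lower level, and neither gene had overlapping groups. WT–emiRFP cells were lower still, with 158, 156 and 153 of Tcl1 and 374, 426 and 374 of AU018091, and p53KO–emiRFP cells lowest, with 104, 91.3 and 90.2 and 347, 344 and 283. At 48 h the level beside p53KO cells was 75.1% of that beside WT cells for Tcl1 and 75% for AU018091.

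The neighbour difference of AU018091 at 96 h, with 653, 770.5 and 787 normalized counts beside p53KO cells and 924, 939 and 825 beside WT cells without overlap, passed with the replicate block, as given above, and not without it (log2 fold change −0.28 ± 0.11, edgeR adjusted p = 0.16). At 120 h it passed without the block, with 1548, 1688 and 1795 normalized counts beside p53KO cells and 2012, 2626 and 2287 beside WT cells (log2 fold change −0.46 ± 0.10, edgeR adjusted p = 0.015). Leaving out replicates 1, 2 and 3 gave an edgeR adjusted p of 0.062, 0.087 and 0.095. It did not pass at 144 h (0.18 ± 0.11, edgeR adjusted p = 0.24). That of Tcl1 was −0.19 ± 0.13 (edgeR adjusted p = 0.46) at 96 h, −0.22 ± 0.13 (edgeR adjusted p = 0.37) at 120 h and −0.05 ± 0.11 (edgeR adjusted p = 0.76) at 144 h. After 72 h Tcl1 came back in WT–emiRFP cells, where it rose 1.63-fold, 3.76-fold and 2.56-fold over the last 3 intervals (edgeR adjusted p = 2.8e-05, 8.6e-20 and 6.6e-15). At 120 h p53KO–emiRFP cells had 147, 93.0 and 103 of Tcl1 against 943, 1032 and 891 in WT–emiRFP cells, 8.37-fold less (log2 fold change −3.06 ± 0.15, edgeR adjusted p = 1.6e-09), and 6.42-fold less AU018091 (−2.68 ± 0.11, edgeR adjusted p = 3.1e-10). At 144 h the deficits were 7.50-fold (−2.91 ± 0.12, edgeR adjusted p = 3.1e-10) and 5.41-fold (−2.44 ± 0.12, edgeR adjusted p = 1.1e-09). At 48 h the sign had been the reverse, with more Tcl1 (0.72 ± 0.12, edgeR adjusted p = 0.00046) and more AU018091 (0.60 ± 0.07, edgeR adjusted p = 1.7e-05) in p53KO–emiRFP cells. From 72 h on the 3 Tcl1 libraries of p53KO–emiRFP cells were below those of every WT population of the same time.

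Of 15 genes of naive pluripotency, all tested, 2 were lower beside p53KO cells at 48 h (Nanog, log2 fold change −0.44 ± 0.04, edgeR adjusted p = 0.00041, and Esrrb, −0.48 ± 0.06, edgeR adjusted p = 0.0047), 6 at 72 h, 4 at 96 h and 3 at 120 h, and 0 were higher. Their median was −0.33, −0.47, −0.26 and −0.26, where that of all genes was −0.01 at 48 h and within that distance of 0 at the others. At 144 h 1 gene, Dppa3, was higher (0.36 ± 0.11, edgeR adjusted p = 0.028) and the median was 0.16. In p53KO–emiRFP cells 6 were higher and 2 lower at 48 h, 11 lower and 0 higher at 96 h, and 14 lower and 1 higher at both 120 and 144 h, with medians of −2.31 and −2.29. Of 13 genes of formative and primed pluripotency 0 passed by neighbour at 48 and 72 h, with 5 and 3 at an unadjusted p under 0.05. Of 5 markers of the 2-cell-like state of mES cells all were lower in p53KO–emiRFP cells at 120 and 144 h, as Tcl1 was, and 4 were higher in WT–mCherry than in WT–emiRFP mES cells, where Tcl1 was lower. By neighbour 0 of them passed at any time, with 4, 0, 3, 0 and 1 at an unadjusted p under 0.05 from 48 to 144 h. Of the Tcl1 family, 2 genes had enough counts at 144 h, Tcl1b2, which was lower in p53KO–emiRFP cells (−3.56 ± 0.54, edgeR adjusted p = 5.1e-05), and Mtcp1, which did not pass (0.45 ± 0.22, edgeR adjusted p = 0.082).

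Mef2b (chr8:70139711-70167488, plus strand) shares 62 of its 1404 exonic bases with Borcs8, so that reads in those bases can belong to either gene. At 48 h the WT–mCherry groups overlapped, with means of 667.2 beside p53KO and 643.2 beside WT cells. At 72 h Mef2b had 621, 752 and 597 normalized counts beside p53KO cells and 408, 447 and 411 beside WT cells, a 1.56-fold higher level without overlap. The p53KO–emiRFP cells were higher still, at 1022, 1012 and 928. The rise was there at 96 h, with 575, 646 and 404 against 319, 402 and 270.0 (log2 fold change 0.71 ± 0.19, edgeR adjusted p = 0.049), with the lowest library beside p53KO cells just above the highest beside WT cells. It did not pass at 120 h (0.31 ± 0.12, edgeR adjusted p = 0.17) and passed at 144 h (0.43 ± 0.11, edgeR adjusted p = 0.011), though not without replicate 1 (0.087). The call at 96 h was at the threshold, with an edgeR adjusted p of 0.05 under TMM normalization and 0.086 with only the groups compared in the fit. In p53KO–emiRFP against WT–emiRFP cells Mef2b was 1.77-fold higher at 72 h (log2 fold change 0.82 ± 0.10, edgeR adjusted p = 2.6e-05) and 2.48-fold higher at 96 h (1.31 ± 0.18, edgeR adjusted p = 0.00012). It did not pass at 48, 120 or 144 h without the replicate block, and passed at 120 h with it, as given above. In mES cells it was the gene of the set that differed most between the WT clones, with 126, 201 and 235 in WT–mCherry and 363, 461 and 501 in WT–emiRFP cells (log2 fold change −1.26 ± 0.25, edgeR adjusted p = 0.0076). Of Mef2a, Mef2c and Mef2d, 0 passed by neighbour at 48 and 72 h (0 at an unadjusted p under 0.05), and Mef2d was higher at 96 h (0.26 ± 0.06, edgeR adjusted p = 0.034) and 144 h (0.24 ± 0.05, edgeR adjusted p = 0.0056), while Mef2c was lower at 144 h (−1.25 ± 0.17, edgeR adjusted p = 0.00033).

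Clic5 (chr17:44188584-44280172, plus strand) and Slc38a3 (chr9:107650634-107669530, minus strand) were higher in WT–mCherry cells beside p53KO cells than in any other population at 96 and 120 h, by mean. Clic5 had 394, 380.4 and 299 normalized counts there at 72 h against 229, 246 and 219 beside WT cells, a 1.55-fold higher level, while WT–emiRFP cells had 368, 402 and 388. At 48 h its means were in the reverse order, 134.3 beside p53KO cells and 150.9 beside WT cells, with overlapping groups. At 96 h it had 149, 143 and 105 against 64.5, 53.6 and 24.8, 2.81-fold more (log2 fold change 1.49 ± 0.29, edgeR adjusted p = 0.017). At 120 h it had 97.8, 104 and 95.3 against 34.9, 67.7 and 31.2, 2.24-fold more (1.17 ± 0.23, edgeR adjusted p = 0.0097). Without replicate 1 the edgeR adjusted p was 0.36 at 96 h and 0.23 at 120 h. Neither time had overlapping groups, and the p53KO–emiRFP cells, with 60.4, 103 and 64.3 and 49.4, 59.3 and 59.6, were below all 3 libraries of their WT neighbours at both. At 144 h the groups overlapped (0.47 ± 0.28, edgeR adjusted p = 0.25), and the neighbour effect was smaller at 144 than at 96 h (log2 difference −1.02 ± 0.33, edgeR adjusted p = 0.043). That decrease did not pass under TMM normalization (edgeR adjusted p = 0.052). Clic5 was lower in p53KO cells than in WT–emiRFP cells at 48 h (−0.74 ± 0.11, edgeR adjusted p = 0.00017) and 72 h (−0.86 ± 0.11, edgeR adjusted p = 5.1e-05). Its time course in WT–emiRFP cells peaked at 72 h, 2.08-fold above 48 h, and fell 5.38-fold by 96 h (edgeR adjusted p = 1.6e-05 and 6.4e-14). Of Clic1, Clic3, Clic4 and Clic6, 0 passed by neighbour at 96 h, with 2 at an unadjusted p under 0.05. Clic1 was higher at 120 h (0.27 ± 0.06, edgeR adjusted p = 0.019), and at 144 h Clic4 was lower (−0.16 ± 0.05, edgeR adjusted p = 0.028) and Clic6 higher (1.01 ± 0.35, edgeR adjusted p = 0.05, just under the threshold).

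Slc38a3 was the gene whose neighbour difference passed at all 3 later times. At 72 h WT–mCherry cells had 438, 472 and 394 normalized counts beside p53KO cells and 311, 296 and 246 beside WT cells. At 96 h these were 447, 477 and 299 against 196, 226 and 175. At 120 h they were 476, 519.9 and 383 against 195, 297 and 181, and the libraries of 144 h held 424, 439 and 368 against 139, 169.7 and 110.0. The groups overlapped at none of the 4 times, with means of 435 at 72 h and 410.3 at 144 h beside p53KO cells and of 284 and 139.6 beside WT cells. At 48 h they had not overlapped either, with closer means of 357.1 beside p53KO and 316.8 beside WT cells. The log2 fold change was 1.03 ± 0.16 (edgeR adjusted p = 0.0065) at 96 h, 1.04 ± 0.17 (edgeR adjusted p = 0.0029) at 120 h and 1.55 ± 0.15 (edgeR adjusted p = 3.8e-05) at 144 h, the last a 2.92-fold difference. Without replicate 1 the edgeR adjusted p was 0.36 at 96 h and 0.15 at 120 h. The difference of 144 h passed whichever replicate was left out, with a highest edgeR adjusted p of 0.0065. In p53KO–emiRFP cells the gene did not differ past the threshold from WT–emiRFP cells between 48 and 120 h in the fit without the replicate block and was 2.36-fold higher at 144 h, with 471, 427 and 471 against 209, 206 and 165 (log2 fold change 1.24 ± 0.15, edgeR adjusted p = 4.4e-06). At 72, 96 and 120 h its mean beside p53KO cells exceeded that of the p53KO–emiRFP cells too, so those levels lie outside the range between WT–mCherry cells beside WT cells and p53KO–emiRFP cells. At 144 h it lay between them, where H2bc14 in these libraries was at 2.39% to 16.9% of the p53KO–emiRFP level, and the part of emiRFP RNA in that result was not tested. Of 18 other amino acid transporters and their partners, 0 passed by neighbour at 48 and 72 h, with 3 and 2 at an unadjusted p under 0.05. At 96 h 1 was higher, Slc1a4 (0.39 ± 0.07, edgeR adjusted p = 0.013), at 120 h 1 was higher and 1 lower, and at 144 h 6 were lower and 0 higher, among them Slc38a1 (−0.30 ± 0.06, edgeR adjusted p = 0.0026). In p53KO–emiRFP cells 12 of the 18 were higher and 1 lower at 72 h. At 96 h 11 were higher and 2 lower. The split was closer from 120 h on, with 8 higher and 5 lower at that time. At 144 h, the time at which Slc38a3 passed, 7 were higher and 6 lower, with a median of −0.02.

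Of 20 p53 target genes, 0 passed in WT–mCherry cells by neighbour at 48 and 72 h, with 2 and 0 at an unadjusted p under 0.05. At 96, 120 and 144 h 7, 9 and 12 were higher beside p53KO cells and 0 lower, with Cdkn1a, the p21 inhibitor of cyclin-dependent kinases, at 0.58 ± 0.10 (edgeR adjusted p = 0.0014) at 144 h. For p53KO against WT–emiRFP cells, 18 or 19 of the 20 were lower at each time. Of 13 primitive streak genes, 10 were tested at 48 h and 13 at 72 and 96 h, and 0 passed by neighbour at these times, with 1, 1 and 6 at an unadjusted p under 0.05, and 8 were higher and 1 lower at 120 h, Evx1, a homeobox factor of the streak, among the former (1.20 ± 0.16, edgeR adjusted p = 0.00074). Of 7 extraembryonic endoderm markers tested, 0 passed by neighbour up to 120 h (1, 2, 2 and 2 at an unadjusted p under 0.05), and 4 were higher at 144 h, where the 8 listed summed to 4367 to 14373 normalized counts beside p53KO cells and 3647 to 7632 beside WT cells. Of 6 trophoblast markers, Tfap2c, a transcription factor, was lower by neighbour at 72 h (−0.56 ± 0.10, edgeR adjusted p = 0.025) and 96 h (−0.39 ± 0.07, edgeR adjusted p = 0.014). At 120 h 1 was higher, the caudal factor Cdx2, and 2 lower, Elf5 and Tfap2c, and at 144 h 2 were higher, Cdx2 and Tfap2c. The 6 summed to 4328 to 6195 and 4361 to 8092 at 72 h and to 9001 to 10327 and 7009 to 7576 at 144 h. Afp was at 0 in WT–mCherry cells beside p53KO cells at 96 h and p53KO–emiRFP cells at 120 h, and the other markers of these lists were at 0 in no group. The part of these cell types in the values of the 10 genes was not tested.

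Differences between times of the neighbour effect passed for 3 of the 10 genes from 96 to 144 h, against 7.68% of all genes, and differences of the p53KO effect from 48 to 144 h for 6, against 50.2%. The latter were decreases for Tcl1, AU018091 and Fgfbp1 and increases for Myl9, Slc38a3 and Itih5.

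In the order of the 23 group means, neighbouring groups mostly did not differ beyond their spread. Of 22 successive pairs the ranges of 22 overlapped for Myl9 and Slc38a3, 20 for Cnn2, Fgfbp1, Itih5 and Mef2b, 19 for Clic5, 14 for Trh, 13 for AU018091 and 11 for Tcl1. The highest group mean was 16.52 times the lowest for Trh, 23.16 for Itih5, 8.655 for Clic5, 6.246 for Fgfbp1, 5.267 for Mef2b, 3.728 for Cnn2, 3.294 for Slc38a3 and 2.932 for Myl9. The gene closest in pattern over the 23 groups was Mecr for Trh (Pearson r 0.8934), Ccn1 for Cnn2 (0.8948), Errfi1 for Itih5 (0.9093), Nptxr for Clic5 (0.9162), Gcm1 for Fgfbp1 (0.874), Mvd for Mef2b (0.84), Trank1 for Slc38a3 (0.7011) and Dact3 for Myl9 (0.6651). The most alike pair within the set after Tcl1 and AU018091 was Cnn2 and Tcl1, at 0.682.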

How the data were processed

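Total RNA of 69 samples, sorted cells of mosaic gastruloids or mES cell clones, was sequenced as stranded polyA libraries. Per the labels and the study's methods, the authors trimmed reads with Trim Galore 0.6.7, aligned them with STAR 2.7.11b to GRCm38.p6 with Gencode annotation, and deposited raw counts of uniquely mapped reads per gene symbol. The strand setting of the counting is not given in the sources used here. Purity was not measured again after sorting, and the replicates came from experiments done at separate times.

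Counts were tested with edgeR 4.0.16 (limma 3.58.1, R 4.3.3) by the quasi-likelihood test, with the 12 libraries of 1 time point together (9 at 0 h). Size factors were median ratios over all 69 libraries, low counts were filtered by group, and p-values were adjusted by Benjamini-Hochberg over all genes tested, with a threshold of 0.05. The time course and the differences between times came from 1 fit of all 69 libraries. Normalized counts are counts divided by the size factor. On simulated data of the neighbour comparison at 72 h, with 17714 genes of which 200 changed by 2-fold, 99% of changed genes were called and 3.41% of calls were on unchanged genes. There all genes had the same small spread, libraries were drawn independently, and changed genes were taken from those with higher means. These shares check the code and do not measure the share found or falsely called in the real data.

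The alternatives were TMM normalization, no filter, DESeq2 1.42.0, only the groups compared, all 69 libraries in 1 fit, a block for the replicate number, and leaving out each replicate. Same-numbered samples deviated together, with a correlation over 0.1 for every pair, in the neighbour comparisons at 48, 72, 96 and 144 h. The same held in all 6 p53KO comparisons. For these comparisons the fit with the block is given as an alternative, and the main tests did not use a block. At 120 h the neighbour pairs ranged from 0.071 to 0.625, and between the clones from 0.09 to 0.284.

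The 10 genes and the gene lists were chosen with earlier results of these data known. All 10 are given with values, lists by counts and medians, and list genes named as examples were picked after their values were seen. The genes closest in pattern had a mean log2 CPM of at least 1. The table held 0 columns of other samples, and at most 1.35% of genes had equal counts in a pair of replicates.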

Additional observations from a re-analysis of the deposited data

Results flagged for a closer look

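The neighbour effect in WT–mCherry cells differed between 96 and 144 h for 3 of the 10 genes by the interaction term of the fit of all 69 libraries. The log2 difference, 144 minus 96 h, was 0.558 for Trh (edgeR adjusted p = 0.0082), from −0.13 to 0.43, 0.465 for AU018091 (edgeR adjusted p = 0.032), from −0.28 to 0.18, and −1.024 for Clic5 (edgeR adjusted p = 0.043), from 1.49 to 0.47. With only the groups compared in the fit, AU018091 (0.064) and Clic5 (0.24) no longer passed, and without replicate 2 none of the 3 did, with 5 of the 10 genes at an unadjusted p under 0.05.

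The p53KO effect differed between 48 and 144 h for 6 of the 10. The log2 difference, 144 minus 48 h, was −3.627 for Tcl1 (edgeR adjusted p = 1.6e-23), −3.032 for AU018091 (edgeR adjusted p = 9e-24) and −2.343 for Fgfbp1 (edgeR adjusted p = 1.1e-14), each of which was higher in p53KO–emiRFP cells at 48 h and lower at 144 h. It was 1.947 for Myl9 (edgeR adjusted p = 2.2e-09), which went from lower to higher, 1.402 for Slc38a3 (edgeR adjusted p = 1.9e-07) and 1.047 for Itih5 (edgeR adjusted p = 0.01).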

How the results depend on the processing

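Of 190 values of the 10 genes over 19 comparisons, 101 passed the threshold. None of the 101 changed sign under any alternative run, and 61 passed under every one. The number of genes that passed by neighbour became 5 at 48 h, 5 at 96 h and 8 at 120 h with the replicate block, 5 at 72 h and 5 at 120 h with all 69 libraries in 1 fit, and 6 at 120 h without the filter. For p53KO mES cells it became 3 with the replicate block, 3 without the filter, 3 by DESeq2 and 4 with all 69 libraries. For the difference between 96 and 144 h it became 1 with only the groups compared. The calls over all genes in these fits are mostly not given here, so these counts are not set against all genes. The replicate block ended no call. At 120 h by neighbour the numbers do not pair the samples by the measure used. Itih5 at that time, with a log2 fold change of −1.02, passed with the block (edgeR adjusted p = 4.8e-05) and without the filter (6e-16). Its counts are the same with and without the filter, so nothing is read from the latter value.

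Leaving out each replicate gave counts of 0 to 2 by neighbour at 48 h, 0 to 6 at 72 h, 0 to 5 at 96 h, 0 to 2 at 120 h and 2 to 3 at 144 h, 0 to 5 for p53KO mES cells, 3 to 5 for p53KO at 96 h, 0 to 4 between clones and 0 to 1 for the neighbour difference between 96 and 144 h. In edgeR fits with 0 calls at 48 and 72 h, 5 and 9 of the 10 were at an unadjusted p under 0.05. The cause was not tested. Fits without a replicate have 2 libraries a group. Calls over all genes also varied between such fits, as given above for 96, 120 and 144 h by neighbour, so these counts are not set against all genes.

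Values that changed sign had all missed the threshold. Fgfbp1 by neighbour at 144 h was 0.009 under TMM and 0.011 by DESeq2. Without each replicate the log2 fold change was −0.075 to 0.116 for Itih5 (by neighbour, 48 h), −0.141 to 0.04 for Myl9 (by neighbour, 96 h), −0.033 to 0.411 for Itih5 (by neighbour, 96 h), −0.003 to 0.054 for Cnn2 (by neighbour, 96 h), −0.524 to 0.058 for Myl9 (by neighbour, 144 h), −0.037 to 0.075 for AU018091 (p53KO, 0 h), −0.226 to 0.391 for Clic5 (p53KO, 96 h), −0.141 to 0.326 for Itih5 (clones, 0 h), −0.08 to 0.075 for Slc38a3 (clones, 0 h), −0.061 to 0.512 for Itih5 (WT–emiRFP, 0 to 48 h), −0.188 to 0.37 for Myl9 (WT–emiRFP, 0 to 48 h), −0.055 to 0.089 for Myl9 (WT–emiRFP, 48 to 72 h), −0.048 to 0.225 for Itih5 (WT–emiRFP, 48 to 72 h), −0.229 to 0.016 for Slc38a3 (WT–emiRFP, 48 to 72 h), −0.001 to 0.32 for Tcl1 (by neighbour, 144 h minus 96 h) and −0.564 to 0.048 for Myl9 (by neighbour, 144 h minus 96 h). The lowest count of any of the 10 genes was 27, for Clic5.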
